A study of Mus musculus with 8 samples.

Results

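Mouse embryonic stem (ES) cells left with the long isoform of the transcription factor Sall4, Sall4a, were compared with ES cells left with the short isoform, Sall4b. The comparison rests on 4 of the 8 arrays in the series, 2 for each isoform, and was made on 14027 genes. All cells were CJ7, an established mouse ES line. They met concentrated virus and 2.5 mcg/mL of polybrene, which aids infection, for 24 hours, then grew in ES medium with LIF and 2 mcg/mL of the selecting drug puromycin, and were collected 48 hours after infection. Sall4a-only cells (+Sall4a -Sall4b) and Sall4b-only cells (-Sall4a +Sall4b) both received a short hairpin RNA (shRNA) that targets both endogenous isoforms, along with a cDNA for that isoform, made immune to the shRNA. The other 4 arrays are shown for orientation. They are 2 from depleted cells (-Sall4a -Sall4b), which received the shRNA and no cDNA, and 2 from control cells, which received a virus without an shRNA. These arrays also entered the choice of probe sets and the shared estimate of spread behind every SE and p-value from the fit reported. Arrays of a group are labelled as biological replicates, but nothing describes separate cultures, and the p-values reflect array-to-array spread that may in part be technical. Genes of most interest were those without overlap, meaning that both arrays of one group lay above both arrays of the other.

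Sall4 is a zinc-finger protein that binds DNA in ES cells and early embryos, recruits the NuRD deacetylase complex and acts beside Pou5f1 and Nanog in the network that keeps ES cells undifferentiated. Sall4a is the full-length protein and Sall4b lacks part of the central region through alternative splicing. Loss of Sall4 in mouse ES cells is known for the appearance of trophoblast genes, which mark the outer layer of the blastocyst that builds the placenta, and Sall4 is also needed in primitive endoderm, the layer that builds the yolk sac. Trophoblast cells form an epithelium with keratin filaments (Krt7, Krt8, Krt18, Krt19) and claudin tight junctions.

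Genes with the widest separation on the higher side in Sall4a-only cells included the keratin genes Krt7 and Krt19, the claudin genes Cldn4 and Cldn7 and the trophoblast regulator gene Hand1, beside genes of other kinds such as Septin4 and Dysf. Genes that stood lowest included the guidance ligand gene Sema3d and the endoderm regulator gene Hnf4a. The promoters of 2 genes from each side are shown, to set a keratin and a claudin gene beside the ligand and the endoderm gene described most fully on the lower side; Septin4 and Lpar3 had wider gaps than Cldn4 and Hnf4a and are not printed. Each runs from 250 bases before to 50 bases after the annotated start (RefSeq, build GRCm38.p6), 5′ to 3′ on the gene's own strand. Capitals mark matches to TGANTCA, the motif of the AP-1 factors. The Krt7 window is chr15:101412153-101412452 on the plus strand, the Cldn4 window chr5:134946885-134947184 on the minus strand, the Sema3d window chr5:12382916-12383215 on the plus strand and the Hnf4a window chr2:163506607-163506906 on the plus strand.
Krt7: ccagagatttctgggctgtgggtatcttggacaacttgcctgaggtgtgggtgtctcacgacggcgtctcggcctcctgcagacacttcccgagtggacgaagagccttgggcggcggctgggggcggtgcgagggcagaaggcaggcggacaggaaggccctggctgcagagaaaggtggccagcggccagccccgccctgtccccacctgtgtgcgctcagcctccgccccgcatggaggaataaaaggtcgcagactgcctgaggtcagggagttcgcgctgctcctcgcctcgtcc
Cldn4: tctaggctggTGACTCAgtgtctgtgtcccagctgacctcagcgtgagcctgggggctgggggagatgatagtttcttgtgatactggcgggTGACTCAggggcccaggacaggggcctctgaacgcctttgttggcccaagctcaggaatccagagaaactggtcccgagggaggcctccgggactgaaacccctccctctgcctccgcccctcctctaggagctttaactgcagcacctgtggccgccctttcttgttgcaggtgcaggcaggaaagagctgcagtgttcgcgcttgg
Sema3d: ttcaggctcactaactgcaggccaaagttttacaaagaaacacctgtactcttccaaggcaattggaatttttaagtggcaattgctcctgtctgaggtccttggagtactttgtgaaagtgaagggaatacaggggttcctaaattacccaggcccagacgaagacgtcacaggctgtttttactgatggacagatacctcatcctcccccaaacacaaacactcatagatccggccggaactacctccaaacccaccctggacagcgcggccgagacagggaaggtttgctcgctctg
Hnf4a: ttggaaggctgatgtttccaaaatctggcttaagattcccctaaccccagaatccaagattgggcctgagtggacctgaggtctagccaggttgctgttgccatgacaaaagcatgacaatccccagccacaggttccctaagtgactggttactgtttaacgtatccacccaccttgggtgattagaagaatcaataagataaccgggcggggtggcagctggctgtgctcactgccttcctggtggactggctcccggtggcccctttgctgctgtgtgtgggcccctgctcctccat
Of the 12 leading genes in each direction, named further on, 8 higher and 9 lower genes had a promoter in the RefSeq table. TGANTCA, searched on both strands, was in 2 of the 8, with 2 matches each in Cldn4 and Sprr1a, and in 0 of the 9. It was in 5.25% of the 11286 promoters of tested genes. ATATT, a short A/T-rich word of the kind Sall4 binds, was also searched on both strands, and lies in none of the windows printed here. It was found in 0 of the 8 promoters, in 1 of the 9 (Mef2c) and in 13.8% of all promoters. GC content was 66.3% in the Krt7 window, 61.0% in Cldn4, 54.0% in Hnf4a and 49.7% in Sema3d, against a median of 60.67% over all tested promoters. These matches describe letters in a window and say nothing of binding.

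The Sall4a-only arrays lay further apart than the arrays of any other group, so most values are given array by array. Replicate differences had an SD over genes of 0.62 log2 for the Sall4a-only pair and 0.28 for the Sall4b-only pair. Markers of ES cells were called present in full on all 8 arrays (7 of 7). Markers of fibroblasts and feeder cells, with 9 of 11 measured (Dcn and Fap were not), averaged 7.01 and 9.70 log2 on Sall4a-only replicates 1 and 2 and 8.39 and 8.94 on the Sall4b-only arrays, with 7, 8, 8 and 8 members called present. The measured 2-cell-like markers, 3 of 5, averaged 4.98 and 6.83 against 6.34 and 5.95, with 0, 3, 3 and 2 called present. Transcripts of the Dlk1-Dio3 imprinted region, picked out after their values were seen, split the same 2 arrays: Rian, a noncoding RNA, was at 6.44 and 12.87 against 12.50 and 12.16. The part of these markers and of the split between the arrays in the results below was not tested. In bulk RNA, fewer cells of a type and less RNA per cell cannot be told apart.

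**Figure D1:**
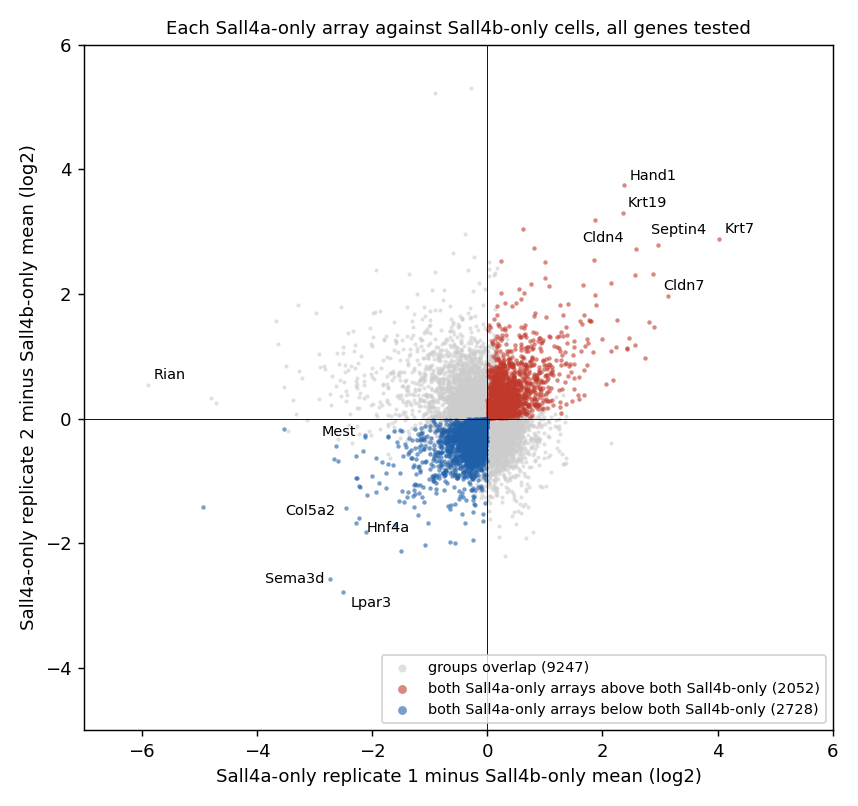
Difference of each Sall4a-only array from the Sall4b-only mean (log2), replicate 1 on the horizontal and replicate 2 on the vertical axis, with 1 point per gene for 14027 genes. Red points (2052) are genes with both Sall4a-only arrays above both Sall4b-only arrays, blue points (2728) the opposite and grey points (9247) overlap; Krt7, Hand1, Krt19, Septin4 and the claudin genes lie far out on both axes, whereas Rian is low on replicate 1 alone.

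Sall4 RNA itself was close between the groups by both of its probe sets. Sall4 (chr2:168748332-168767201, GRCm38.p6) was read by a bright probe set at an intensity of 9140 and 9043 on the Sall4a-only arrays and 9567 and 9923 on the Sall4b-only arrays. The arrays did not overlap, but the log2 difference was only -0.10 (SE 0.10), and by limma it had an adjusted p of 0.951. The dimmer probe set had 152 and 158 against 211 and 144, which overlap. Depleted cells had 10489 and 10333 on the bright set and control cells 15077 and 13778. On that set all 4 add-back arrays lay below both of these groups. On the dimmer set depleted cells had 137 and 156, which overlap the add-back arrays. Control cells had 362 and 334 there, above all add-back arrays. Positions of the probes were not used here, so these values cannot tell the isoforms apart or show how much of either cDNA was made, and the group names give the intended state. The other family members overlapped between the groups: Sall1 was at 11.81 and 11.24 against 11.55 and 11.58, Sall2 at 8.64 and 9.30 against 8.89 and 9.29, and Sall3 at 7.89 and 7.40 against 7.94 and 7.77.

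No gene passed the test across all genes. By limma with Benjamini-Hochberg adjustment, 0 genes were higher and 0 lower at an adjusted p under 0.05 (0.0% of 14027 each way), while 820 (5.85%) had an unadjusted p under 0.05, 431 higher (3.07%) and 389 lower (2.77%). The smallest adjusted p, 0.101, was shared by Sema3d and by H2-Bl and Tmprss2, which were named after their values were seen. H2-Bl, a class I histocompatibility gene, was at 8.68 and 8.77 against 7.53 and 7.40 (difference 1.26, SE 0.11). Tmprss2, a membrane serine protease gene of epithelia, was at 9.39 and 9.22 against 7.97 and 8.03 (difference 1.30, SE 0.11). The words higher and lower below therefore describe the arrays and not a passed test.

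The groups did not overlap at 2052 genes higher in Sall4a-only cells (14.6% of those tested) and 2728 lower (19.4%), together 4780 (34.1%), and overlapped at 9247. With 2 arrays against 2, a random order of the arrays leaves no overlap with a probability of 0.333. The total is near that share, so the count by itself is no sign of a difference between the isoforms. The size of the separation was measured by the gap, the distance in log2 between the lowest array of the higher group and the highest array of the lower group. Gaps of at least 0.5 log2 were found at 164 genes on the higher side (1.17%) and 84 on the lower side (0.599%). Those of at least 1 were found at 40 genes on the higher side (0.285%) and 7 on the lower side (0.0499%), and gaps of at least 2 at 7 genes (0.0499%) and 1 gene (0.00713%). Lower genes without overlap were thus more numerous, and wide gaps were more often on the higher side. At the edge of the rule, Atp5md was just inside on the higher side with a gap of 3.94e-05 log2 and Baat just outside with 0.0. On the lower side the edge lay between Brms1l, inside by 3.9e-05, and Mrrf, outside with -4.63e-06.

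Krt7, which encodes a keratin of simple epithelia and trophoblast, had the widest gap of the named genes. Krt7 (chr15:101412403-101427806, GRCm38.p6) was at 13.15 and 12.01 log2 on the Sall4a-only arrays and 8.99 and 9.25 on the Sall4b-only arrays. Depleted arrays had 10.09 and 10.73 and control arrays 11.42 and 12.07, so Sall4b-only cells were the lowest of the 4 groups. The means were 12.58 ± 0.81 and 9.12 ± 0.19 (SD, n = 2), an 11.0-fold difference (log2 3.46, SE 0.43, gap 2.75, limma adjusted p = 0.215). Krt19, a partner keratin in simple epithelia, was at 12.62 and 13.58 against 10.56 and 9.99, 7.10-fold higher (log2 2.83, SE 0.41, limma adjusted p = 0.292). Depleted and control arrays of Krt19 ran from 12.23 to 13.40, all above both Sall4b-only arrays.

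Hand1, a basic helix-loop-helix regulator of trophoblast giant cells, had the largest difference among the transcription factors named here. It was at 9.63 and 11.00 on the Sall4a-only arrays, 7.05 and 7.46 on the Sall4b-only arrays, 8.64 and 8.64 in depleted and 10.05 and 9.96 in control cells. Its fold was 8.35 (log2 3.06, SE 0.42, gap 2.17, limma adjusted p = 0.252), and its second probe set differed by 2.08 with a gap of 1.29. It passed when either Sall4a-only array was left out, at an adjusted p of 0.0403 without replicate 1 (log2 3.75) and 0.0397 without replicate 2 (log2 2.37). The lone array is then assumed to vary like the other groups.

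Claudins, the proteins that seal tight junctions, stood beside the keratins. Cldn4 was at 9.96 and 10.10 against 7.55 and 7.20, 6.30-fold higher (log2 2.66, SE 0.42, gap 2.42, limma adjusted p = 0.368). Depleted cells had 8.36 and 9.20 and control cells 9.52 and 10.62, so depleted arrays lay between the add-back groups and control arrays around the Sall4a-only ones. Cldn7 was at 12.25 and 11.69 against 9.44 and 9.31, with depleted cells at 9.84 and 10.86 and control cells at 10.79 and 11.90 (6.04-fold, log2 2.59, SE 0.47, gap 2.26). Cldn6, a claudin of embryonic epithelia, was at 13.15 and 13.12 against 11.75 and 11.17. Depleted cells had 11.78 and 12.60 and control cells 12.72 and 13.42. Within the depleted and the control group, Cldn4, Cldn6 and Cldn7 were each higher on replicate 2 than on replicate 1. Cldn3 was called present on 1 Sall4a-only array and on no Sall4b-only array. Its values were 9.37 and 7.98 against 6.59 and 7.01, 3.67-fold higher as measured. Its 3 other probe sets had gaps of 0.24, 1.21 and 0.41 in the same direction.

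The remaining genes of the 12 widest gaps on the higher side encode proteins of several kinds. Septin4, which encodes a GTP-binding filament protein, was at 11.28 and 11.09 against 8.22 and 8.39, 7.35-fold higher (log2 2.88, SE 0.31, gap 2.70, limma adjusted p = 0.215), and its second probe set differed by 2.77. Depleted and control arrays of Septin4 ran from 9.39 to 10.38, between the add-back groups with no overlap. Slc34a2, which encodes a sodium-phosphate transporter of epithelia, was at 9.40 and 9.14 against 6.63 and 7.05. Dysf, whose product dysferlin repairs membranes, was at 10.69 and 10.71 against 8.27 and 8.80. Lipg, which encodes endothelial lipase, was at 10.63 and 9.46 against 7.66 and 7.32. Sprr1a, which encodes a cornified envelope protein of squamous epithelia, was at 11.01 and 12.34 against 9.35 and 8.94. The last 2 were Cdcp1, a surface receptor gene, at 9.34 and 9.27 against 7.56 and 7.34, and Mal2, a gene of apical transport, at 5.996 and 6.11 against 4.16 and 4.09. Mal2 was called present on 1 Sall4b-only array. Control arrays lay on either side of the Sall4a-only arrays for both genes, at 8.55 and 9.93 for Cdcp1 and 4.23 and 6.78 for Mal2. Adjusted p by limma was 0.215 for Slc34a2 and Dysf, 0.292 for Lipg, 0.561 for Sprr1a, 0.749 for Cdcp1 and 0.83 for Mal2.

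**Figure D2:**
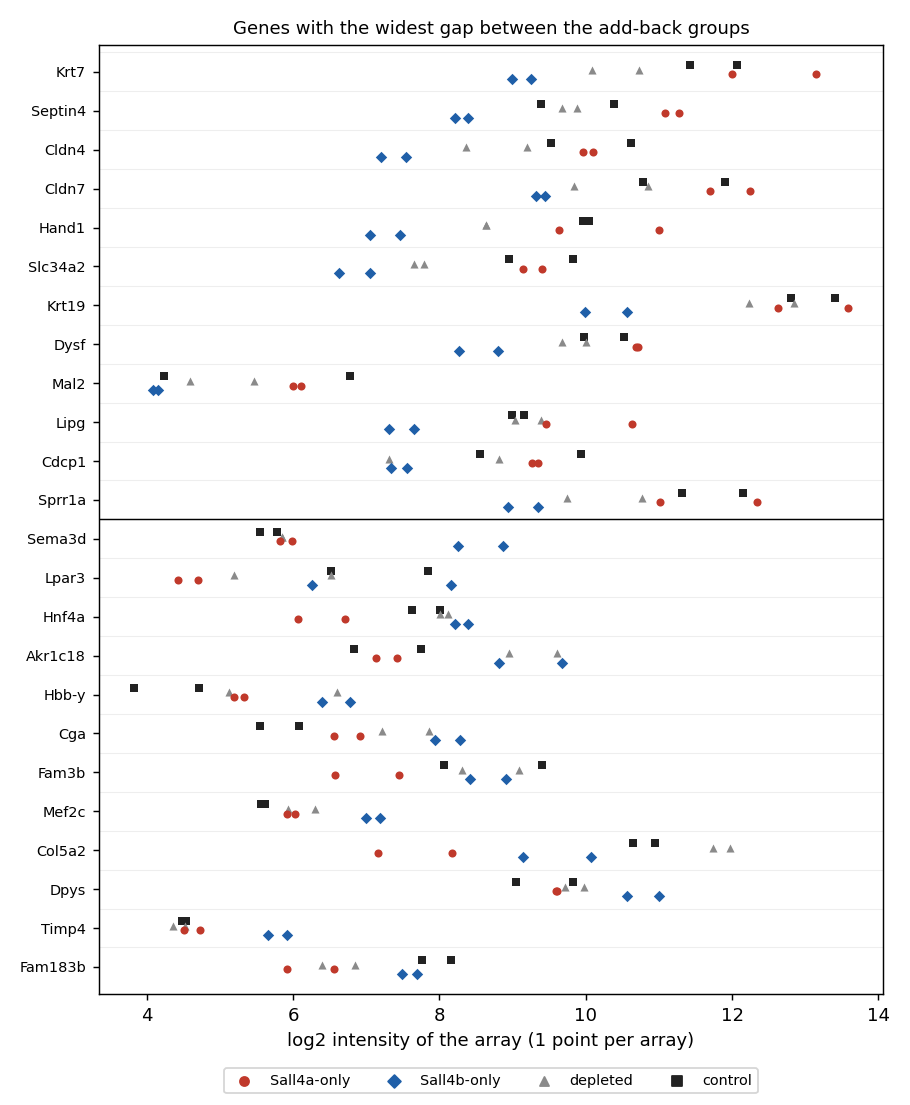
Log2 intensity (horizontal axis) of the 12 genes with the widest gap in each direction, 1 row per gene and 1 point per array; red circles are Sall4a-only, blue diamonds Sall4b-only, grey triangles depleted and black squares control arrays. Above the line Sall4b-only points lie left of the Sall4a-only points. For all genes there but Cdcp1, the Sall4b-only points also lie left of all depleted and control points. Below the line, Sema3d and Timp4 stand out on the Sall4b-only arrays alone.

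Of 21 measured trophoblast regulators, 9 were higher without overlap (42.9%, against 14.6% of all genes) and 1 lower (4.76%, against 19.4%), and the median difference was 0.18 log2, against -0.029 over all genes. The median was 0.19 on Sall4a-only replicate 1 and 0.28 on replicate 2. Cdx2, the homeobox factor that sets the trophoblast lineage, was at 9.44 and 9.99 against 7.96 and 8.40 (log2 1.54, SE 0.36, gap 1.04, limma adjusted p = 0.642). Control arrays of Cdx2 had 8.61 and 7.71 and depleted arrays 8.28 and 8.69, so the Sall4a-only arrays were the highest of the 8. Esx1, an X-linked homeobox gene of the placenta, was at 8.90 and 8.89 against 7.43 and 7.72 (log2 1.32, SE 0.17, limma adjusted p = 0.219), with control arrays at 8.54 and 8.93. Dlx3, a homeobox gene of placenta and skin, was at 10.59 and 10.98 against 9.68 and 9.70, and depleted arrays were lower than all of these, at 8.08 and 8.51. Eomes, a T-box factor of trophoblast stem cells, was at 8.06 and 7.88 against 7.70 and 7.40, a gap of 0.19. Tfap2a was lower without overlap, and Tfap2c, Gata3, Ascl2, Klf5 and Id2 overlapped; these 6 were named after their values were seen.

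Placental products were mixed. Of 15 measured members, 5 were higher without overlap (33.3%, against 14.6% of all genes) and 2 lower (13.3%, against 19.4%), with a median difference of 0.089 log2, 0.021 on replicate 1 and 0.30 on replicate 2. Wnt7b, a Wnt ligand gene used in placental attachment, was at 8.67 and 8.13 against 7.29 and 6.80. Plet1, a surface marker gene of trophoblast progenitors, was at 8.99 and 8.35 against 7.20 and 7.76. Rhox6, a homeobox gene expressed in placenta, was at 11.26 and 9.71 against 8.78 and 9.38, whereas Rhox13 was at 9.61 and 9.74 against 10.26 and 11.51. Tpbpa, a product of the spongiotrophoblast, overlapped at 5.38 and 5.44 against 5.39 and 5.53. The marker list for trophoblast, which holds Krt7, Krt19, Hand1 and Cdx2 and of which Elf5 was not measured, averaged 9.36 and 9.59 on the Sall4a-only arrays, 7.69 and 7.88 on the Sall4b-only arrays, 8.62 and 8.93 in depleted and 9.25 and 9.42 in control cells, with 6 or 7 of 7 called present.

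Of 15 measured keratin genes, 6 were higher without overlap (40.0%, against 14.6% of all genes) and 2 lower (13.3%, a share below the 19.4% of all genes). The median difference was 0.34 log2, 0.26 on replicate 1 and 0.36 on replicate 2. Krt8, with Krt18 the first keratin pair of the embryo, was at 14.29 and 14.21 against 13.17 and 12.97, and Krt18, named after its values were seen, at 14.63 and 14.64 against 14.03 and 14.06. Krt16, a keratin of activated skin, was at 8.37 and 8.13 against 6.57 and 6.57. Lower without overlap were Krt15 (6.93 and 8.13 against 8.18 and 8.83) and Krt23 (6.03 and 5.73 against 6.41 and 6.31), also named after their values were seen. Krt19 and Krt16, 100.2 kb apart on chromosome 11, were the 1 pair within 200 kb of each other among the genes with a gap of at least 1.

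The list of epithelial and mesenchymal genes had 28 measured members, of which 11 were higher without overlap (39.3%, against 14.6% of all genes), 1 lower (3.57%, against 19.4%) and 16 overlapped. The median difference was 0.11 log2, 0.21 on replicate 1 and 0.34 on replicate 2. The 11 were the 4 claudin genes and, named after their values were seen, Cdh1, Ocln, Esrp1, Grhl2, Ovol1, Dsp and Pkp3. Ocln, which encodes the tight junction protein occludin, was at 8.87 and 8.76 against 7.99 and 8.12. Dsp, which encodes desmoplakin of the desmosome, was at 12.03 and 12.18 against 11.21 and 10.96, and Pkp3, also of the desmosome, at 9.65 and 9.09 against 8.33 and 8.08. Grhl2, a regulator of epithelial junction genes, was at 10.69 and 10.30 against 9.72 and 9.45, and Cdh1, which encodes E-cadherin, at 13.10 and 13.04 against 12.82 and 12.77. Zeb1, a repressor of Cdh1 and also outside the naming rule, was the 1 lower gene, at 11.46 and 11.46 against 11.55 and 11.85. Also chosen after their values were seen, Vim, Fn1, Cdh2, Snai1, Zeb2 and Twist1, genes of the mesenchymal state, overlapped, as did the epithelial and junction genes Epcam, Jup, Dsg2 and Tjp1.

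Some other genes with a gap of at least 1 were picked after their values were seen, from a set of 40 that also holds genes of other kinds such as Flnc, Mbp, Cxcl16, Il24 and Pdgfb. Crb3, a gene of apical polarity, was at 10.32 and 10.10 against 8.63 and 8.44. Lad1, a basement membrane anchor gene, was at 10.38 and 9.71 against 8.17 and 8.09. Prss8, which encodes the membrane protease prostasin, was at 9.51 and 8.78 against 7.68 and 7.34. Dsc2, which encodes a desmosomal cadherin, was at 11.33 and 11.22 against 9.99 and 10.17, and Marveld3, of the tight junction, at 9.97 and 8.80 against 7.76 and 7.27. Their adjusted p by limma lay between 0.56 and 0.82.

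**Figure D3:**
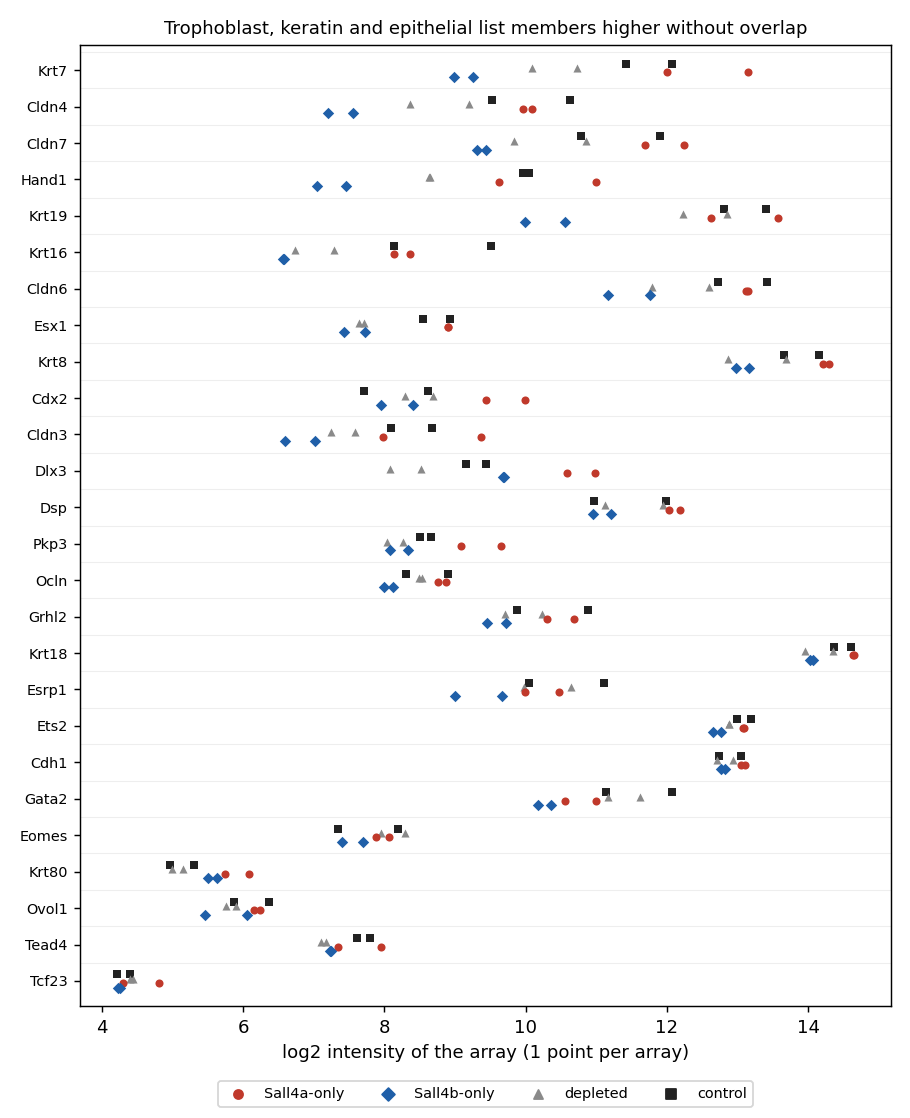
Log2 intensity (horizontal axis) of the members of the trophoblast, keratin and epithelial lists that were higher in Sall4a-only cells without overlap, 1 row per gene and 1 point per array, ordered by gap; colours and shapes mark Sall4a-only (red circles), Sall4b-only (blue diamonds), depleted (grey triangles) and control (black squares) arrays. In the upper rows Sall4b-only arrays are lowest and control arrays lie near the Sall4a-only ones; for Cdx2 and Dlx3 the Sall4a-only arrays lie above control as well.

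Control and depleted arrays place these genes. The groups are shared between the comparisons, so the differences are given side by side. The genes were chosen for a separation of Sall4a-only from Sall4b-only arrays. That choice by itself pushes the differences of the add-back groups from another group towards opposite signs, so nothing is drawn from the signs. The counts of nearer means have no share over all tested genes beside them, so they describe these sets only. Over the 40 genes with a gap of at least 1 on the higher side, the median of Sall4a-only minus depleted was 1.23 log2 and of Sall4b-only minus depleted -0.61. The median of Sall4a-only minus control was 0.48 and of Sall4b-only minus control -1.52. The control mean was nearer to Sall4a-only at 33 of the 40 genes and nearer to Sall4b-only at 7, while the depleted mean was nearer to Sall4a-only at 9 and to Sall4b-only at 31. Over all 2052 higher genes these counts were 1215 and 837 for control, and 795 and 1257 for depleted cells. Over the 2728 lower genes they were 1986 nearer to Sall4a-only and 742 nearer to Sall4b-only for control, and 1946 and 782 for depleted cells. The 7 lower genes with a gap of at least 1 were divided 4 and 3 for control and 3 and 4 for depleted cells.

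Immediate early genes are the first transcripts induced by growth factors and stress. Of 18 measured AP-1 and immediate early genes, 10 were higher without overlap (55.6%, against 14.6% of all genes) and 0 lower (19.4% of all genes), and the median difference was 0.24 log2 (0.26 on replicate 1 and 0.21 on replicate 2). Atf3, a stress-induced factor, was at 11.996 and 11.23 against 10.38 and 9.93 (log2 1.45, SE 0.39, limma adjusted p = 0.68). Zfp36, which encodes a protein that destabilises mRNA, was at 10.79 and 10.56 against 9.61 and 9.78. Dusp1, a phosphatase gene, was at 12.85 and 13.27 against 12.37 and 12.48, and Fosl1, an AP-1 subunit gene, at 6.92 and 7.53 against 6.73 and 6.73. Control arrays of Atf3 had 11.78 and 12.58, above both Sall4b-only arrays, and overlapped the Sall4a-only arrays. Egr1, Myc, Ier2 and Nr4a1 of the same list, picked from its overlapping members, did not separate the groups.

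On the lower side Sema3d, which encodes a secreted semaphorin that guides axons and endothelial cells, had the widest gap. Sema3d (chr5:12383161-12588953, GRCm38.p6) was at 5.82 and 5.98 log2 on the Sall4a-only arrays and 8.26 and 8.87 on the Sall4b-only arrays. Depleted arrays had 5.84 and 5.85 and control arrays 5.78 and 5.55, so only the Sall4b-only arrays of the 8 were high. Sall4a-only cells were 6.32-fold lower, at 5.90 ± 0.11 against 8.56 ± 0.43 (SD, n = 2; log2 -2.66, SE 0.21, gap -2.27, limma adjusted p = 0.101). A second, dimmer probe set differed by -0.47 with a gap of -0.34. Timp4, which encodes a metalloproteinase inhibitor, and Mef2c, a muscle and neural transcription factor gene, were likewise high on the Sall4b-only arrays alone. Timp4 was at 4.51 and 4.72 against 5.66 and 5.91, with the other 4 arrays between 4.36 and 4.53, and Mef2c at 5.92 and 6.02 against 6.99 and 7.19, with the other 4 arrays between 5.57 and 6.30. The signal of Timp4 was weak, and it was called present on both Sall4b-only arrays, 1 Sall4a-only array and no depleted or control array. Of the 2 other Mef2c probe sets, 1 had a gap of -0.22 and 1 overlapped.

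Hnf4a, a nuclear receptor of visceral endoderm and liver, was low on the Sall4a-only arrays alone. Hnf4a (chr2:163506811-163572907, GRCm38.p6) was at 6.07 and 6.71 against 8.39 and 8.21, with depleted arrays at 8.005 and 8.12 and control arrays at 7.63 and 8.01. Sall4a-only cells were 3.75-fold lower (log2 -1.91, SE 0.24, gap -1.50, limma adjusted p = 0.215), and the second probe set differed by -0.63 with a gap of -0.49. In the primitive endoderm list, of 27 measured members, 9 were lower without overlap (33.3%, against 19.4% of all genes) and 1 higher (3.7%, against 14.6%), which was Rbp4, named after its values were seen. In 24 the mean was below that of Sall4b-only cells, as it was in 7851 of all 14027 genes, and the median difference was -0.33 log2, -0.41 on replicate 1 and -0.12 on replicate 2. Sox17, an endoderm regulator gene, was at 8.14 and 8.03 against 10.52 and 8.95 (log2 -1.65, SE 0.55). Srgn, a proteoglycan gene, was at 9.73 and 10.38 against 11.85 and 10.64, and Apoe, an apolipoprotein gene of the yolk sac, at 11.94 and 11.61 against 12.28 and 12.22.

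Gata4 and Gata6, which start the primitive endoderm programme, overlapped. Gata4 was at 9.32 and 8.85 against 10.02 and 8.89 (log2 -0.37, SE 0.39), and Gata6 at 7.40 and 8.31 against 9.23 and 8.03 (log2 -0.78, SE 0.47). Both Gata4 and Gata6, like Sox17, were higher on Sall4b-only replicate 1 than on replicate 2. The primitive endoderm markers averaged 8.08 and 8.35 on the Sall4a-only arrays, 9.43 and 8.48 on the Sall4b-only arrays, 8.95 and 8.97 in depleted and 9.15 and 9.74 in control cells, with 6 of 6 called present on every array. Without Sall4b-only replicate 1 the list's median difference was -0.11.

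The other genes with the widest gaps on the lower side encode hormones, enzymes, matrix and globin. Lpar3, a lysophosphatidic acid receptor gene, was called present on no Sall4a-only array and was at least 6.26-fold lower, at 4.70 and 4.42 against 8.15 and 6.26. Akr1c18, which encodes an enzyme that inactivates progesterone, was at 7.14 and 7.42 against 8.81 and 9.68. Cga, the shared alpha subunit gene of glycoprotein hormones, was at 6.91 and 6.56 against 7.95 and 8.28, and the embryonic globin gene Hbb-y at 5.20 and 5.33 against 6.40 and 6.78. In control cells all 3 of Akr1c18, Cga and Hbb-y lay below both Sall4b-only arrays. Col5a2, a fibrillar collagen gene and fibroblast marker, was at 7.16 and 8.17 against 9.14 and 10.08, with depleted and control arrays from 10.65 to 11.97. Fam3b was at 6.57 and 7.44 against 8.42 and 8.90, Fam183b at 6.55 and 5.92 against 7.49 and 7.69, and Dpys, which encodes a pyrimidine-degrading enzyme, at 9.60 and 9.59 against 11.00 and 10.56. The 2 other Dpys probe sets overlapped, with differences of 0.17 and 0.028 in the opposite direction. Second probe sets of Col5a2 and Hbb-y had the same direction, with gaps of -0.83 and -1.35. Adjusted p by limma ran from 0.522 (Fam183b) to 0.821 (Hbb-y) for these 8 genes.

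Core pluripotency factors did not separate the groups. Pou5f1 was at 13.50 and 13.15 against 13.59 and 13.46 (log2 -0.20, SE 0.20), Nanog at 13.53 and 13.35 against 13.40 and 13.56 (log2 -0.044, SE 0.13) and Sox2 at 12.85 and 12.19 against 12.78 and 12.78 (log2 -0.26, SE 0.22). Klf4 differed by -0.21 (SE 0.31) and Esrrb by -0.34 (SE 0.32), with Sall4a-only replicate 1 above and replicate 2 below both Sall4b-only arrays for each. Over the whole pluripotency list of 37 measured genes, 13 were lower without overlap (35.1%, against 19.4% of all genes) and 0 higher (14.6% of all genes), 36 had a lower mean (7851 of all 14027 genes), and the median difference was -0.23 log2. That median was -0.078 on Sall4a-only replicate 1 and -0.48 on replicate 2, so most of it lay on 1 array. Genes lower on both arrays included Klf2, a naive-state factor (11.77 and 11.44 against 12.08 and 12.01), the LIF receptor gene Lifr (10.97 and 10.63 against 11.32 and 11.19), the LIF feedback gene Socs3 (11.25 and 10.99 against 11.57 and 11.52) and Tet2, a DNA demethylation enzyme gene (12.33 and 12.07 against 12.68 and 12.42).

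**Figure D4:**
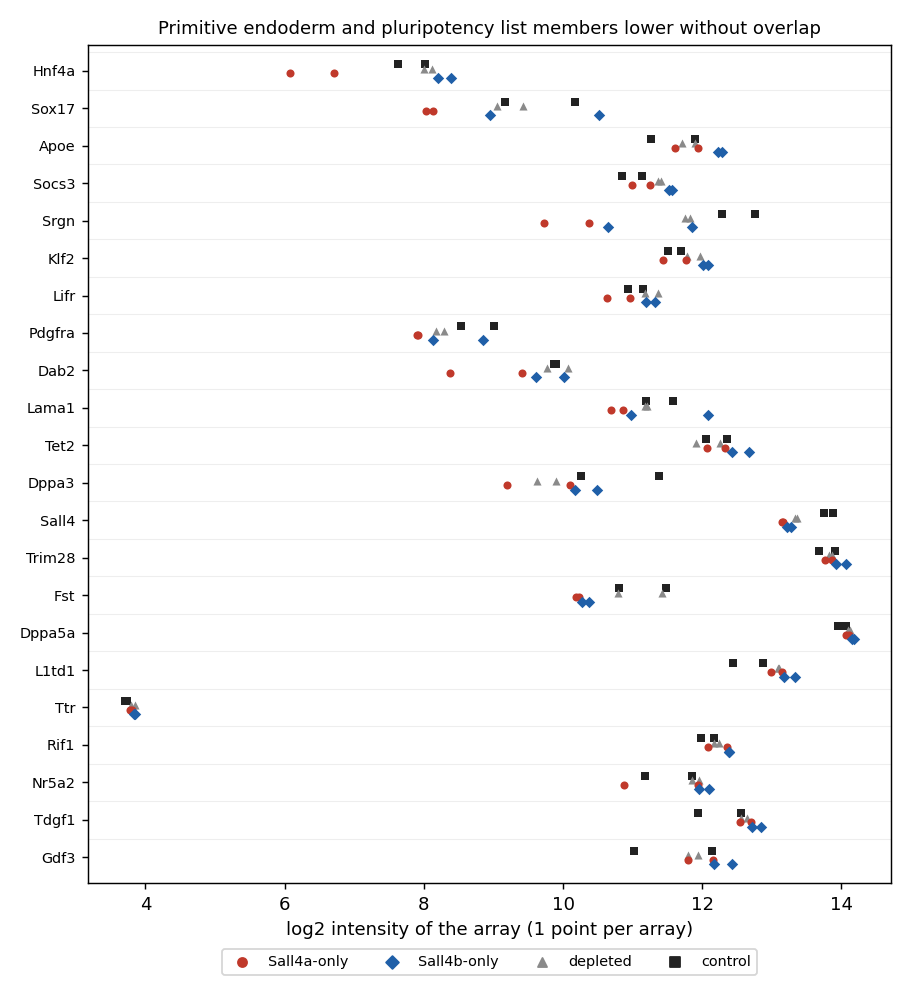
Log2 intensity (horizontal axis) of the primitive endoderm and pluripotency list members that were lower in Sall4a-only cells without overlap, 1 row per gene and 1 point per array, ordered by gap; Sall4a-only arrays are red circles, Sall4b-only blue diamonds, depleted grey triangles and control black squares. Hnf4a and Sox17 show the widest separation, while most pluripotency genes differ by a small part of a log2 unit; Ttr lies at the bottom of the scale on every array.

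Cell cycle, germ cell and Polycomb lists had medians below 0, and the median on replicate 2 was the lower one in each. Of 24 measured G2/M genes, 9 were lower without overlap (37.5%, against 19.4% of all genes) and 0 higher (14.6% of all genes), and all 24 means were below those of Sall4b-only cells, with a median of -0.31 log2 (-0.092 on replicate 1 and -0.47 on replicate 2). Plk1, a mitotic kinase gene, was at 11.04 and 10.75 against 11.39 and 11.26. Of 20 germ cell genes, 7 were lower (35.0%) and 1 (Stra8, named after its values were seen) higher (5.0%) without overlap, against the same shares of all genes, with a median of 0.016 on replicate 1 and -0.62 on replicate 2. Asz1, a gene of the piRNA pathway, was at 4.86 and 5.98 against 6.36 and 7.79. Of 22 Polycomb genes, 7 were lower (31.8%) and 1 higher (4.55%, Phc2, also named afterwards), and the lower ones included Cbx2 at 9.28 and 9.35 against 9.74 and 9.72. NuRD genes, whose complex Sall4 recruits, had 2 of 13 higher (Gatad2b and Mbd2) and 2 lower (Hdac1 and Hdac2), with a median of 0.018. That is 15.4% each way, near the 14.6% higher and 19.4% lower of all genes. Gaps were small, at 0.022 for Gatad2b, 0.052 for Mbd2, -0.12 for Hdac1 and -0.084 for Hdac2.

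Growth factor and signalling genes included single members without overlap. The counts of their lists are to be read against 14.6% higher and 19.4% lower of all genes. Igf2, an imprinted growth factor gene, was at 10.85 and 11.55 against 9.23 and 8.78 (log2 2.20, SE 0.44, limma adjusted p = 0.517). Its list of imprinted genes outside Dlk1-Dio3 had 2 of 26 members higher and 3 lower. Bmp8b, a BMP ligand gene, was at 9.20 and 10.25 against 8.15 and 8.09, while Bmp7, another, was at 6.55 and 7.68 against 8.43 and 8.31; of 20 BMP genes 5 were higher and 4 lower. Dkk1, a secreted Wnt inhibitor gene, was at 9.38 and 9.58 against 10.27 and 11.23, and of 15 Wnt genes 4 were higher and 2 lower. The FGF feedback gene Dusp5 was at 12.81 and 13.02 against 11.85 and 12.23, and Spry4, of the same feedback, at 9.98 and 10.04 against 10.96 and 10.49; of 19 genes 2 were higher and 4 lower. The epiblast gene Fgf5 was called present on no add-back array, and the mesoderm gene T was not measured.

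**Figure D5:**
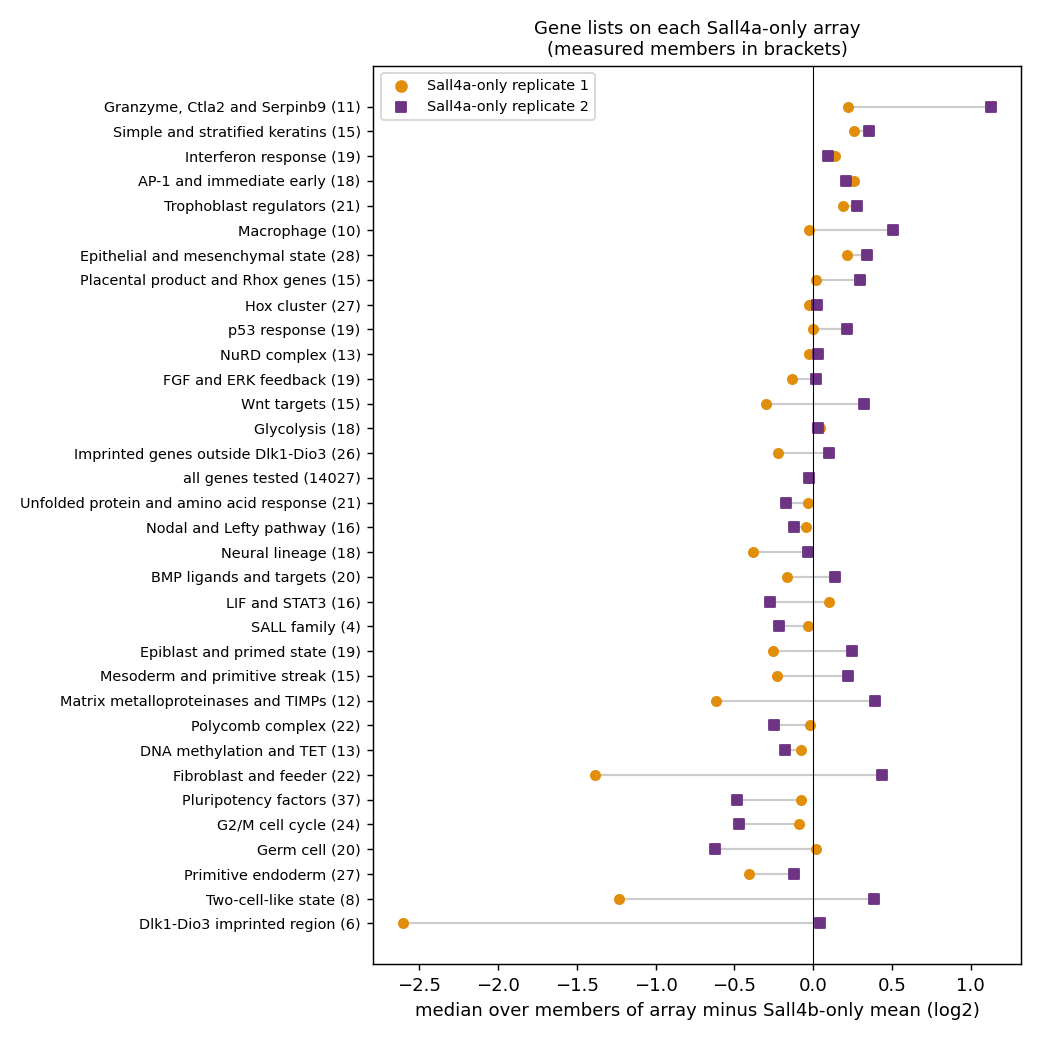
Median over the measured members of each gene list of the difference between a Sall4a-only array and the Sall4b-only mean (log2, horizontal axis), with orange circles for replicate 1, purple squares for replicate 2 and the number of members in brackets. Keratin, trophoblast and AP-1 lists and the joint list of epithelial and mesenchymal genes lie above 0 on both arrays. Primitive endoderm, G2/M and pluripotency lists lie below 0 on both, whereas Dlk1-Dio3, fibroblast and 2-cell-like lists lie far apart between the arrays.

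Other probe sets of the same genes give a reading within the same arrays. Of the 40 genes with a gap of at least 1 on the higher side, 18 had 22 other probe sets, of which 22 differed in the same direction and 20 were without overlap. Of the 7 on the lower side, 4 had 4 others, all in the same direction and without overlap. Over all 2052 higher genes, 1322 of 1596 other probe sets had the same direction, 820 were without overlap in it and 83 without overlap in the opposite direction. Over the 2728 lower genes these counts were 1750 of 2400, 846 and 179.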

How the data were processed

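Gene expression was measured on 8 arrays in 4 groups of 2, with the group and replicate number of each taken from its title. The authors deposited an intensity on a linear scale for every probe set and array, with present, marginal or absent calls. The submitters' processing notes name RMA, which corrects background, equalises arrays and summarises probes, without a version. For the method of the calls, the sources used here give nothing. The 3 deposited tables of intensity held identical values (0 differed). Intensities ran from 9.71 to 34525, array medians from 141 to 149.8, and 62.1% to 66.5% of probe sets were called present.

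Of 45101 probe sets, 64 array controls were left out. A single gene symbol came with 34945 in the platform annotation, several with 932, and 9160 without an entry have no name here. Checking symbols by Entrez identifier altered 0 of them. The filter kept probe sets with a present call on 2 or more of the 8 arrays (31554, of which 26080 had 1 symbol), and the brightest on average stood for its gene (14027 genes). Log2 was taken with no pseudocount and no further normalization. A fold is given as "at least" where the dimmer group had no present call and the brighter group was called present on both arrays. It was computed against the measured value or, where higher, the lowest present-called intensity of the array. The measured value was the higher for the genes printed, so the bound equals the measured fold.

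R 4.3.3 and limma 3.58.1 (statmod 1.5.0) fitted 4 group means to all 8 arrays (lmFit, eBayes), with 4 residual degrees of freedom and 6.2 after moderation. Adjusted p are Benjamini-Hochberg values over all 14027 genes. The fit was tested on simulated data. With 2 against 2 arrays, an exact two-sided permutation p cannot be below 0.333, and the number of arrays limits the precision. Coordinates and promoter windows are from RefSeq, GRCm38.p6, and 13952 of the genes had coordinates.

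Named genes are Sall1 to Sall4, the 12 widest gaps in each direction among genes called present on both arrays of the brighter group (clones and predicted symbols passed over), up to 4 members of each of 33 lists with the widest gap, and a fixed set of lineage and pluripotency regulators. Others are marked in the text. The members and lists were chosen with earlier results of these data known, so lists have counts and medians and no test. Replicate numbers were not taken to pair the arrays: deviations of replicate 1 correlated at 0.20 between the add-back groups, over 2 pairs only, at 0.57 between control and depleted cells, and between -0.12 and 0.069 for the other pairs of groups.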

Additional observations from a re-analysis of the deposited data

How the results depend on the processing

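The count of genes past the threshold was 0 in each direction in the fit reported and with only the 4 add-back arrays, a trended and robust prior, array weights, no filter on present calls, presence on both arrays of an add-back group, the mean of probe sets, quantile normalization and median centring. The lowest adjusted p by limma in these settings lay between 0.0819 and 0.617. With the replicate block the count was also 0, with a lowest adjusted p of 0.245 and 1019 genes at an unadjusted p under 0.05. Leaving out 1 array in turn gave 0 to 10 higher and 0 to 37 lower genes. Counts above 0 arose only when an array of the Sall4a-only pair, which lay furthest apart, was left out. The spread of that group is then not measured, so these counts are no support for single genes. Genes high or low on 1 Sall4a-only array alone were among them: Gzme without replicate 1, and Rian, Col1a1 and Cd44 without replicate 2. With 1 array left out, the log2 difference ran from 2.37 to 3.75 for Hand1 and 2.89 to 4.03 for Krt7. For Lipg it ran from 1.97 to 3.15 and for Hnf4a from -2.22 to -1.59. The ranges were -2.96 to -2.35 for Sema3d, -1.82 to -0.69 for Bmp7 and -2.62 to -0.45 for Mest. Genes without overlap then numbered 2052 to 5346 higher and 2728 to 6137 lower, since fewer arrays can overlap. Over all fits without 1 array, differences that changed sign ran from -0.82 to 0.14 log2 for Esrrb, -0.71 to 0.28 for Klf4, -0.14 to 0.049 for Nanog, -0.59 to 0.071 for Sox2, -0.32 to 0.25 for Sall1, -0.45 to 0.20 for Sall2, -0.46 to 0.032 for Sall3 and -0.93 to 0.20 for Gata4. The mean of probe sets gave -0.0074 for Gatad2b and 0.028 for Spred1. The cause of these changes was not tested. The alternative of another deposited table gave no value of its own because the tables were identical.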

Other observations

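Lists outside those described above gave the following counts between Sall4a-only and Sall4b-only cells. Of 11 measured genes of the granzyme, Ctla2 and Serpinb9 families, which encode proteases and their inhibitors and are expressed in placenta as well as lymphocytes, 5 were higher without overlap (45.5%) and 1 lower (9.09%), against 14.6% and 19.4% of all genes. Their median was 0.22 log2 on Sall4a-only replicate 1 and 1.13 on replicate 2. Serpinb9g was at 7.50 and 6.19 against 4.93 and 5.20, and Ctla2b at 6.89 and 8.40 against 5.34 and 6.45. Gzme, a granzyme gene named after its values were seen, was at 4.61 and 10.75 against 5.47 and 5.57, high on replicate 2 alone. Of 19 p53 response genes 8 were higher (42.1%) and 3 lower (15.8%, below the 19.4% of all genes), with a median of 0.034, 0.0017 on replicate 1 and 0.22 on replicate 2. Pmaip1, a cell death gene, was at 10.96 and 12.15 against 10.83 and 10.59.

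Of 10 measured genes of the macrophage list, 4 were higher (40.0%, against 14.6% of all genes) and 0 lower (19.4% of all genes). The list median was -0.025 log2 on Sall4a-only replicate 1 and 0.51 on replicate 2, and Lyz2, 1 of the 4, had a gap of only 0.014. Csf1r, the receptor gene for colony stimulating factor 1, which trophoblast also expresses, was at 8.64 and 7.39 against 6.04 and 5.63. Olr1, a lipoprotein receptor gene called present on no Sall4b-only array, was at least 3.09-fold higher, at 5.84 and 7.10 against 4.83 and 4.85. Depleted arrays of Olr1 had 8.90 and 8.39 and control arrays 9.49 and 9.87, above all add-back arrays. Itgam, Adgre1, Ptprc and Tyrobp, which define macrophages, were not measured after the filter on present calls. Of 19 interferon response genes 4 were higher and 4 lower (21.1% each way). Ifitm1 was at 12.24 and 11.92 against 12.86 and 12.75, and Psmb8, an immunoproteasome gene, was at least 1.92-fold higher, at 7.62 and 7.97 against 6.66 and 7.04.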
